A study of Mus musculus with 6 samples.

Results

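Podocytes are the epithelial cells that wrap the capillaries of the kidney glomerulus with interlocking foot processes. Neighbouring foot processes are bridged by the slit diaphragm, a cell junction built around the adhesion protein nephrin, which forms part of the filter that keeps protein in the blood. Signalling and scaffold proteins tie this junction to the actin skeleton of the foot processes, and a small group of nuclear regulators keeps podocytes differentiated and out of the cell cycle.

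The genes described here are 8 podocyte genes chosen by symbol from the 23282 rows of each library: the slit diaphragm genes Nphs1 and Magi2, the signalling genes Ptpro and Plce1, the apical surface gene Podxl, the foot process gene Synpo and the nuclear regulators Wt1 and Cdkn1c. All 8 were listed in every library and all 8 passed the filter on low values. They were measured in whole kidney of 3 C57BL/6 (B6) mice and 3 BALB/c (BALBc) mice, both inbred strains, with 1 library per mouse. The series concerns strain differences of kidney innate lymphoid cells and IL-2 signalling, and its kidney libraries address how the whole organ's transcripts differ between the strains. No treatment is recorded, and the sources used here give neither age nor sex.

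The libraries held between 8310798 and 10416332 recovered reads, and the 45S ribosomal RNA row took between 12.7% and 15.6% of them, with overlapping ranges in the strains. Libraries were made with a QuantSeq kit, which reads the 3′ ends of poly(A) transcripts, so a value reports a transcript's end. Values are CPM as the authors scaled them, with library sums between 980188 and 1043599 CPM, and folds are B6 over BALB/c on the log2(CPM + 1) scale, which understates changes at low levels. Genes were tested with limma across 13317 genes and called at a Benjamini-Hochberg adjusted p under 0.05. Proximal tubule markers summed to between 5155 and 5425 CPM in B6, against between 4525 and 5082 CPM in BALB/c, and the 8 podocyte genes summed to between 374.8 and 434.3 CPM in B6, against between 467.5 and 502.2 CPM in BALB/c.

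Among the 8 genes the strains differed most in Nphs1 and Ptpro, both higher in B6, by 15.7-fold and 3.88-fold in mean CPM. Cdkn1c was lower in B6 by 0.47 on the log2 scale. Podxl and Magi2 were lower in every B6 library than in every BALB/c library but did not pass the test, and Synpo, Wt1 and Plce1 overlapped between the strains. In all, 3 of the 8 genes passed the test, 2 higher and 1 lower in B6, while 9.09% of all tested genes passed it, 4.93% higher and 4.17% lower in B6. CPM of the strains did not overlap in 5 of the 8, against 25.4% of all tested genes. The median log2 fold of the 8 was -0.17, against -0.0023 over all tested genes. Folds of the 8 genes went both ways, with 3 of 8 above 0, beside 49.6% of all tested genes. In whole kidney, a difference in podocyte number and one in RNA per podocyte cannot be told apart, and neither was tested.

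The promoters of the 2 genes that were higher in B6 are printed because they carry the clearest strain difference. They are the RefSeq windows from 250 bases before to 50 bases after the start of transcription, on build GRCm38.p6, the genome of B6. The BALB/c sequence was not analysed here. The Nphs1 window lies at chr7:30459808-30460107 and the Ptpro window at chr6:137252049-137252348, both on the plus strand. The Nphs1 window falls wholly inside the gene as GENCODE places it, past its outermost start at 30458315. The Ptpro window spans the GENCODE start of its gene at 137252319. Capitals mark matches to GTGGGNG, read on both strands, a core shared by sites of WT1 and related zinc-finger factors.
Nphs1: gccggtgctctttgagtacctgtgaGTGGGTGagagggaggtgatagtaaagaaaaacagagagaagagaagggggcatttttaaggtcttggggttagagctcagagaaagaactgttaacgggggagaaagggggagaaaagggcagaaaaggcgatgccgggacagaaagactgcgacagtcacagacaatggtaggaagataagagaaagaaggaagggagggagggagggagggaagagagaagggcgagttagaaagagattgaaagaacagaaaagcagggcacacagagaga
Ptpro: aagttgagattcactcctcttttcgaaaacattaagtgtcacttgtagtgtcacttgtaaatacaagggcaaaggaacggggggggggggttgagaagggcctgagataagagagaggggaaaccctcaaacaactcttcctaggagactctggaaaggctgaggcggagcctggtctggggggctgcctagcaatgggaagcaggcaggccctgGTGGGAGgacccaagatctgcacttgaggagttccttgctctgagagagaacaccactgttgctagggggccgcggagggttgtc

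Each of these windows held 1 match to GTGGGNG, which 31.6% of the 32851 windows in the table hold. Neither held the GC box GGGCGG, which 35.7% of windows hold. The Nphs1 window was 49.7% G and C, and the Ptpro window 54.7%, beside a median of 52.7% over all windows. These matches describe letters in the reference and are not measured binding. Of the 8 genes, Magi2 and Plce1 also had windows in the table, and Podxl, Synpo, Wt1 and Cdkn1c had none that were used here.

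**Figure D1:**
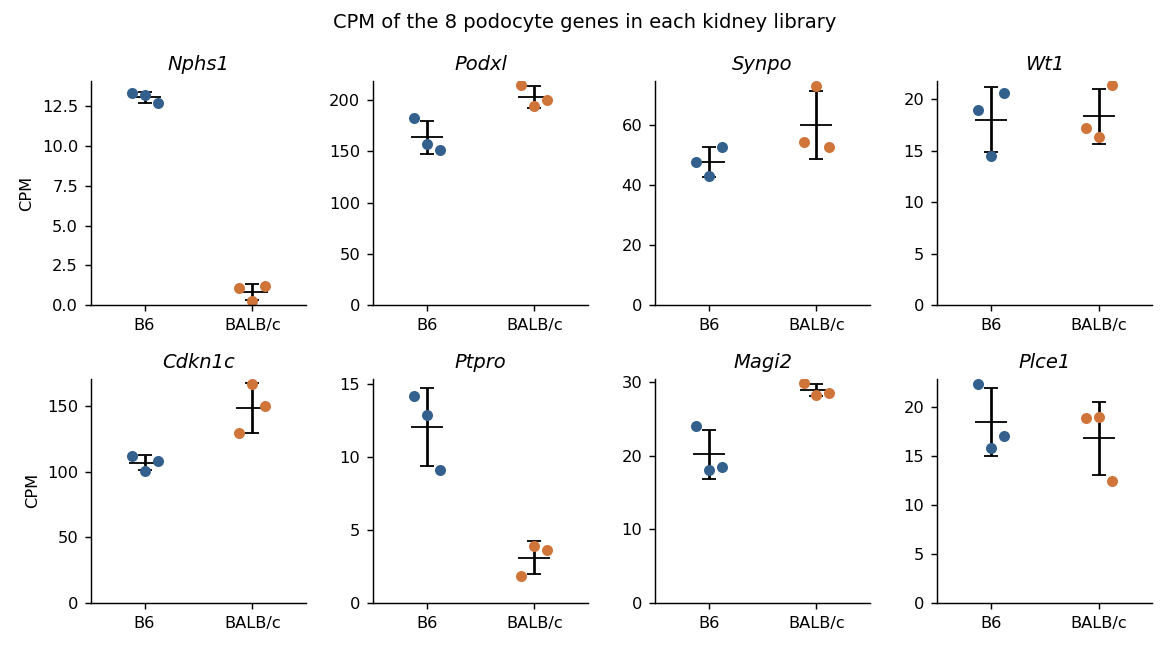
CPM (vertical axis, linear, from 0) of the 8 podocyte genes in each library, with 3 B6 libraries at the left and 3 BALB/c libraries at the right of each panel. Points are libraries, bars the mean and SD. Nphs1 and Ptpro stand clearly higher in B6, Podxl, Cdkn1c and Magi2 lower without overlap, and the other genes overlap.

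Nphs1 encodes nephrin, the immunoglobulin-family adhesion protein at the core of the slit diaphragm, whose loss causes congenital nephrotic syndrome in humans (chromosome 7, 30458315 to 30487223, plus strand, GRCm38). It had 13.3, 13.2 and 12.7 CPM in the B6 libraries, against 1.06, 0.236 and 1.20 CPM in the BALB/c libraries. The lowest B6 library stood far above the highest BALB/c library. These values rest on 121, 131 and 113 reads in B6 and on 11, 2 and 12 reads in BALB/c. Nphs1 averaged 13.1 ± 0.346 CPM in the B6 libraries, against 0.834 ± 0.523 CPM in the BALB/c libraries (mean ± SD over 3). The log2 fold was 2.98 ± 0.33 (SE, limma adjusted p = 1.11e-06). The 95% interval of the log2 fold ran between 2.29 and 3.67, and by absolute fold the gene ranked 25 among the 13317 tested. The call held under each of the 16 alternatives run.

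Over the 3 B6 libraries Nphs1 had a coefficient of variation of 2.65%, while BALB/c had 62.6% at its few reads. With 3 libraries per strain, both values are only rough measures of spread. Its reads cannot all be placed with certainty. Of 50-base words taken from the last 300 bases of its longest coding transcript, 21.6% also occurred in transcripts of 170 other genes, in a stretch between 175 and 76 bases from the end. The sources used here do not say how reads with several alignments were counted. Its exons overlap the antisense gene Nphs1os by 597 bases, outside those last 300 bases, and those of the pseudogene Rps12-ps4 by 183 bases. Nphs1os was listed at 0 in every library. The mm10 build represents B6, and whether BALB/c reads of Nphs1 aligned to it as readily was not tested.

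Magi2 encodes a scaffold protein with PDZ domains that binds nephrin at the slit diaphragm (chromosome 5, 19227036 to 20704792, plus strand). It had 24.0, 18.04 and 18.5 CPM in the B6 libraries, against 29.8, 28.3 and 28.5 CPM in the BALB/c libraries. All B6 libraries were below all BALB/c libraries, and B6 replicate 1 was the highest of its strain. Its fold on the log2 scale came to -0.51 ± 0.18 (SE, n = 3, limma adjusted p = 0.0794), with a 95% interval between -0.88 and -0.14. Its values went the other way from those of Nphs1 without passing the test. Exons of Gm29254 overlap 77 of the end bases of its coding transcripts.

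Ptpro encodes a receptor-type tyrosine phosphatase of the apical foot process membrane, also known as GLEPP1 (chromosome 6, 137252319 to 137463233, plus strand). It had 14.2, 12.9 and 9.08 CPM in the B6 libraries, against 1.84, 3.89 and 3.61 CPM in the BALB/c libraries. Every B6 library was above every BALB/c library. The values rest on 338 reads over the B6 libraries and 88 over the BALB/c libraries. Ptpro averaged 12.1 ± 2.66 CPM in the B6 libraries, against 3.11 ± 1.11 CPM in the BALB/c libraries (mean ± SD over 3). The log2 fold was 1.69 ± 0.31 (SE, limma adjusted p = 6.80e-04). None of its end words occurred in another gene, and the call held under each of the 16 alternatives run.

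Plce1 encodes phospholipase C epsilon, a lipid-signalling enzyme mutated in some inherited nephrotic syndromes of humans (chromosome 19, 38481109 to 38785030, plus strand). It had 22.3, 15.8 and 17.0 CPM in the B6 libraries, against 18.9, 19.0 and 12.4 CPM in the BALB/c libraries. The strains overlapped, with the highest library in B6 and the lowest in BALB/c. Its log2 fold was 0.14 ± 0.22 (SE, n = 3, limma adjusted p = 0.789), with a 95% interval between -0.32 and 0.59, and its sign turned when B6 replicate 1 (-0.0040) or BALB/c replicate 3 (-0.053) was left out.

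Podxl encodes podocalyxin, a negatively charged sialomucin that coats the apical surface of podocytes and is also made by vascular endothelium (chromosome 6, 31519488 to 31563981, minus strand). It had 182.0, 157.0 and 151.4 CPM in the B6 libraries, against 215.0, 194.4 and 199.9 CPM in the BALB/c libraries. The highest B6 library lay below the lowest BALB/c library by less than the range within B6. The log2 fold was -0.31 ± 0.10 (SE, n = 3, limma adjusted p = 0.0534), with a 95% interval between -0.52 and -0.10. It passed the threshold under 5 of the 16 alternatives, with a lowest adjusted p of 0.0423 without B6 replicate 1.

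Synpo encodes synaptopodin, an actin-associated protein of the foot processes (chromosome 18, 60593973 to 60660142, minus strand). It had 47.7, 42.9 and 52.8 CPM in the B6 libraries, against 54.5, 73.2 and 52.7 CPM in the BALB/c libraries. The strains overlapped narrowly, and BALB/c replicate 2 was the highest library. The fold of Synpo on the log2 scale was -0.31 ± 0.14 (SE, n = 3, limma adjusted p = 0.207), with a 95% interval between -0.61 and -0.014.

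Wt1 encodes the zinc-finger transcription factor that podocytes keep in adult life (chromosome 2, 105126529 to 105173616, plus strand). It had 18.9, 14.5 and 20.6 CPM in the B6 libraries, against 17.2, 16.4 and 21.4 CPM in the BALB/c libraries. The ranges nearly coincided. The fold of Wt1 on the log2 scale was -0.029 ± 0.21 (SE, n = 3, limma adjusted p = 0.960), and the 95% interval between -0.46 and 0.40 leaves room for moderate differences either way. Its sign turned without B6 replicate 2 (0.11) or BALB/c replicate 3 (0.082).

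Cdkn1c encodes p57Kip2, an inhibitor of cyclin-dependent kinases that marks podocytes that no longer divide, and is an imprinted gene expressed from the maternal copy (chromosome 7, 143458339 to 143461050, minus strand). It had 111.8, 100.4 and 108.1 CPM in the B6 libraries, against 129.1, 166.8 and 149.6 CPM in the BALB/c libraries. All B6 libraries were below all BALB/c libraries. Cdkn1c averaged 106.7 ± 5.79 CPM in the B6 libraries, against 148.5 ± 18.9 CPM in the BALB/c libraries (mean ± SD over 3). The log2 fold was -0.47 ± 0.11 (SE, limma adjusted p = 0.00780). It did not pass without BALB/c replicate 2 (limma adjusted p = 0.0732) or with a variance prior that has no trend (0.144). Exons of the antisense gene Gm44732 overlap 37 of the end bases of its coding transcripts, and the sources used here do not say whether counting used strand.

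**Figure D2:**
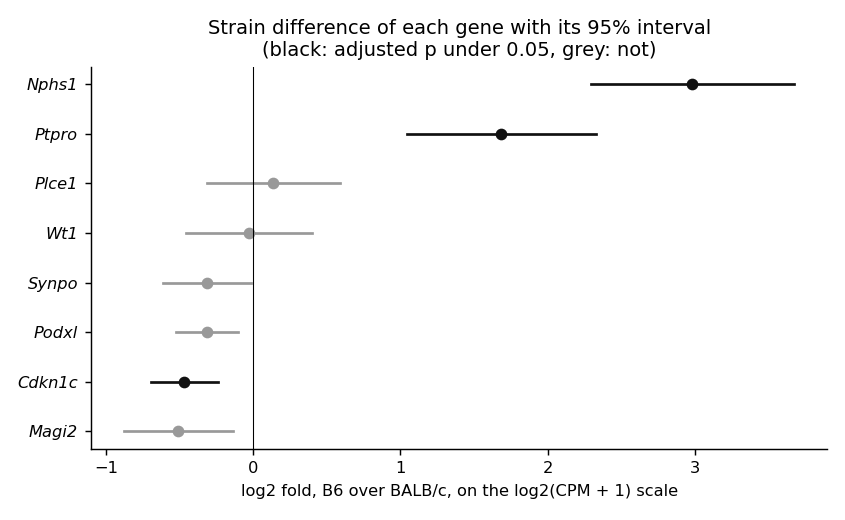
Log2 fold of each podocyte gene, B6 over BALB/c (horizontal axis, log2(CPM + 1) scale), with its 95% limma interval as a line, from 3 B6 and 3 BALB/c libraries. Nphs1 at 2.98 and Ptpro at 1.69 lie far to the right, Cdkn1c at -0.47 lies to the left, and the grey genes did not pass the test.

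A 3′ end kit gives reads from transcript ends, so CPM were set side by side between genes with no division by length. In B6 the mean levels ran in the order Podxl, Cdkn1c, Synpo, Magi2, Plce1, Wt1, Nphs1 and Ptpro, from 163.5 to 12.1 CPM. In BALB/c the first 4 kept this order, followed by Wt1, Plce1, Ptpro and Nphs1, from 203.1 to 0.834 CPM. Magi2, Plce1 and Wt1 overlapped in B6, as did Nphs1 and Ptpro, so those neighbours were not ordered beyond their spread. In BALB/c Wt1 and Plce1 overlapped, while every Ptpro value exceeded every Nphs1 value.

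Ratios of reads within a library do not depend on how libraries were scaled. For every 100 reads of Podxl there were 7.32, 8.41 and 8.36 reads of Nphs1 in the B6 libraries, against 0.495, 0.121 and 0.602 in the BALB/c libraries. On these reads, a setting chosen after the data were seen, the log2 ratio averaged -3.64 ± 0.11 over the B6 libraries. Over the BALB/c libraries it averaged -8.24 ± 1.26 (SD of 3 libraries), and BALB/c replicate 2 had only 2 reads of Nphs1. The difference was 4.60 (exact permutation test, two-sided, p = 0.1, the smallest that 3 against 3 libraries allow). Taken as a difference of log2(CPM + 1) values, which does depend on the CPM scale through the added 1 CPM, the ratio averaged -3.54 ± 0.11 in B6 and -6.84 ± 0.41 in BALB/c. That difference was 3.30 (exact permutation test, two-sided, p = 0.1), and 1.94 with 5 CPM added. Ptpro had 7.80, 8.22 and 6.00 reads per 100 of Podxl in B6, against 0.855, 2.0 and 1.80 in BALB/c, again with no overlap. Wt1 had 10.4, 9.24 and 13.6 in B6, against 8.01, 8.43 and 10.7 in BALB/c, which overlap. Cdkn1c had 61.4, 63.9 and 71.4 in B6, against 60.0, 85.9 and 74.9 in BALB/c, which also overlap, so the strains were not set apart by this ratio.

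**Figure D3:**
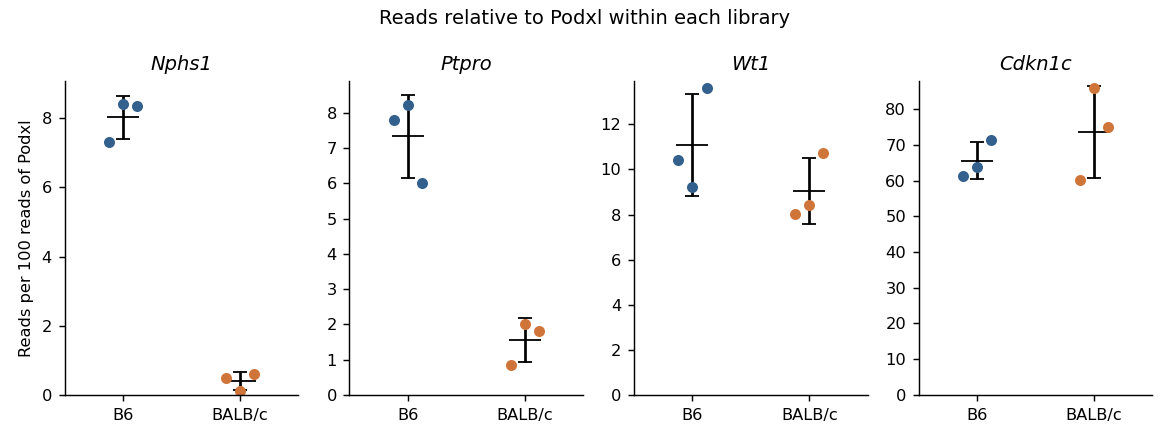
Reads of Nphs1, Ptpro, Wt1 and Cdkn1c per 100 reads of Podxl in the same library (vertical axes, linear, from 0), with 3 B6 libraries left and 3 BALB/c libraries right. Points are libraries, bars the mean and SD. The Nphs1 ratio lies between 7.32 and 8.41 in B6 and at most at 0.602 in BALB/c, whereas the Wt1 and Cdkn1c ratios overlap.

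Within B6, replicate 1 was the highest library for most of the 8 genes, while no BALB/c library was the highest for most. These placings were neither tested nor set beside all genes. Some rest on small gaps, as for Nphs1 at 13.3 and 13.2 CPM in B6 replicates 1 and 2. B6 replicate 1 held the highest B6 value of 6 of the 8 genes and the lowest of 0, and B6 replicate 2 held the lowest value of 5 and the highest of 0. In BALB/c, replicate 2 held the highest value of 4 genes and the lowest of the other 4, among them Nphs1, while replicates 1 and 3 each held the highest of 2 and the lowest of 2.

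By the fixed measure of likeness, the root mean square difference of centred log2 values over the 6 libraries, the genes most like Nphs1 among 10442 searched were Cyp2c44 (0.208), Pttg1 (0.295) and Atp4a (0.349). They encode a cytochrome P450, securin and a proton pump subunit. Their log2 folds were 2.74, 3.05 and 2.99. The strain gap of Nphs1, a log2 fold of 2.98, makes up most of this measure, so like folds were built into it. None is a podocyte marker of the fixed lists, which for the same reason is no separate result.

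Kirrel2, a nephrin relative whose gene starts beside Nphs1, had 0 reads in every library, and the channel gene Trpc6 had 6 reads over all B6 libraries and 13 over all BALB/c libraries. Those genes lay below the filter, as did Kirrel3. Foxc1, a forkhead transcription factor gene, stood at -0.097 on the log2 scale and did not pass (limma adjusted p = 0.789). The podocyte transcription factor gene Lmx1b had 0 reads in every library.

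Of 13 other tested genes of the foot process skeleton and apical membrane, 3 were higher and 0 lower in B6, beside 4.93% higher and 4.17% lower over all tested genes. Slc9a3r1, which encodes the scaffold NHERF1 that links membrane proteins to ezrin and is abundant in proximal tubule, had 86.7, 85.6 and 87.6 CPM in the B6 libraries, against 38.7, 43.0 and 58.5 CPM in the BALB/c libraries, with no overlap. Its log2 fold was 0.90 ± 0.14 (SE, limma adjusted p = 1.17e-04). Actn4, the gene of alpha-actinin 4, an actin crosslinker made in many cells, stood at 0.41 (limma adjusted p = 0.00364) but did not pass with an untrended prior (0.147), and all its end words also occur in 1 other annotated gene. Arhgap24, which encodes a Rac-inactivating protein, stood at 0.34 (0.0396) and lost its call under 10 of the 16 alternatives, with an adjusted p of up to 0.229. These genes are expressed well beyond podocytes, and which cells carried the difference was not tested.

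Thsd7a encodes a podocyte membrane protein that is a target of antibodies in human membranous nephropathy, and it was lower in B6. Thsd7a had 54.9, 57.2 and 64.7 CPM in the B6 libraries, against 85.3, 82.5 and 82.1 CPM in the BALB/c libraries, with no overlap. Its log2 fold was -0.49 ± 0.12 (SE, limma adjusted p = 0.00869), and it did not pass without B6 replicate 1 (0.0577) or with an untrended prior (0.0918). Of 14 genes of the glomerular basement membrane and its adhesion receptors, 0 passed by limma or limma-voom, and 2 had an unadjusted p below 0.05, as did 21.3% of all tested genes. Npnt, the gene of the matrix protein nephronectin, stood at 0.28 (limma adjusted p = 0.0723), and Itgb1, an integrin subunit gene, at 0.20 (0.218). Of 18 further genes of inherited nephrotic syndrome, 1 was called, beside 9.09% of all tested genes. It was Kank1, which encodes an adhesion-linked scaffold and was higher in B6, with a log2 fold of 0.56 (limma adjusted p = 0.0101). It did not pass without BALB/c replicate 1 (0.0837) or with an untrended prior (0.121).

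**Figure D4:**
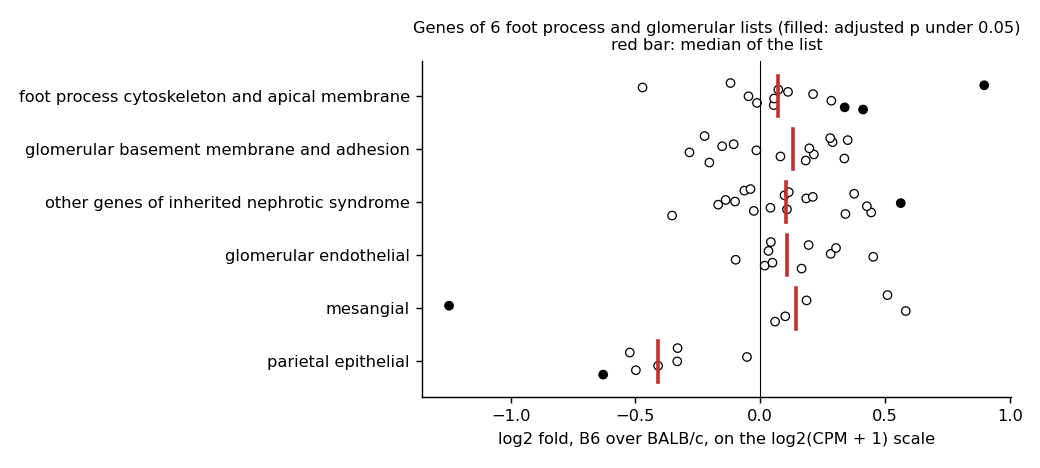
Log2 fold, B6 over BALB/c, of genes of 6 foot process and glomerular lists (horizontal axis, log2(CPM + 1) scale). Circles are genes other than the 8, filled where the adjusted p was under 0.05, and red bars are list medians. The medians lie between -0.41 for parietal epithelial markers and 0.14 for mesangial markers, and every fold shown is smaller in size than that of Nphs1.

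Summed markers of neighbouring cells lay apart between the strains in each of 4 lists. Glomerular endothelial markers summed to between 405.0 and 440.4 CPM in B6, against between 372.7 and 383.6 CPM in BALB/c. Of these, 0 of 10 passed by limma or limma-voom and 3 had an unadjusted p below 0.05, beside 21.3% of all tested genes. CPM of the strains did not overlap in 3 of the 10, beside 25.4% of all tested genes. Ehd3, of the same list, stood at 0.018 (limma adjusted p = 0.957). Mesangial markers summed to between 131.2 and 149.7 CPM in B6, against between 118.8 and 128.9 CPM in BALB/c. Folds of 5 of the 6 were above 0, with a median of 0.14. Only 1 of 6 was called, beside 9.09% of all tested genes. It was Itga8, lower in B6, which did not pass with an untrended prior (limma adjusted p = 0.0588). Markers of parietal epithelium, the lining of Bowman's capsule, summed to between 191.1 and 225.7 CPM in B6, against between 264.0 and 278.2 CPM in BALB/c, and 1 of 7 was called, Akap12, lower in B6 (log2 fold -0.63, limma adjusted p = 0.00514), which did not pass with that prior either (0.0784). Folds of all 7 parietal markers were below 0, the smallest in size at -0.053 (Krt8, limma adjusted p = 0.890). Over all tested genes 49.6% had folds above 0 and 9.09% were called. Macrophage markers summed to between 96.5 and 114.3 CPM in B6, against between 139.2 and 161.0 CPM in BALB/c. Of these, 1 of 5 was called, Csf1r, lower in B6, beside 9.09% of all tested genes. Without Csf1r, whose end words all occur in 1 other annotated gene, the other 4 overlapped, between 36.7 and 42.5 CPM in B6, against between 28.2 and 37.3 CPM in BALB/c. All these sums are of whole kidney, and which cells carried the markers was not tested. No defining marker of these 4 lists was at 0, and their part in the values of the 8 podocyte genes was not tested.

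**Figure D5:**
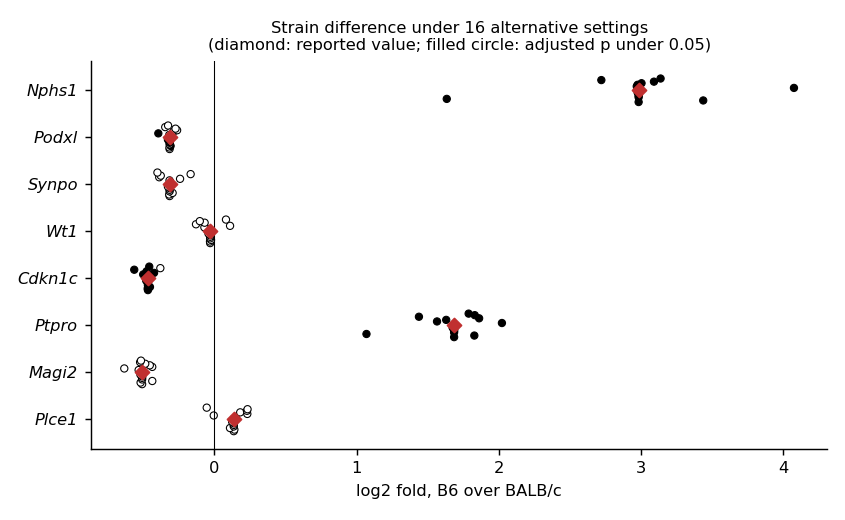
Log2 fold of each podocyte gene, B6 over BALB/c (horizontal axis), as reported (diamond) and under 16 alternative settings (circles, filled where the adjusted p was under 0.05). Nphs1 stays between 1.63 and 4.08 and Ptpro between 1.07 and 2.02, filled throughout, while circles of Wt1 and Plce1 fall on both sides of 0.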

How the data were processed

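RNA from whole kidney was extracted with Trizol and made into libraries with a Lexogen QuantSeq kit, per the labels' protocols. Bowtie2 and bedtools were used with mm10, per the submitters' processing notes, and the sources used here give no versions, annotation or strand setting. The authors deposited log2 values. These were read as log2(CPM + 1), because 100% of the low values in every library came out as whole numbers of reads within 0.1 read, and sums of CPM lay between 980188 and 1043599. Reads recovered so served limma-voom, alternative library scalings, the ratios of reads to Podxl and counting.

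Genes with a log2 value of at least 1 in at least 3 libraries were fitted with limma 3.58.1 in R 4.3.3, with strain as the sole term and a trended prior of 18.4 degrees of freedom beside 4 residual ones. The planned edgeR and DESeq2 fits were not used, since the files hold log values. The script was checked on simulated reads. Libraries of a strain, 1 per mouse by the series text, differed from each other beyond sampling noise, with a chi-square of 7.75 to 16.3 per degree of freedom. Coordinates came from GENCODE M21 on GRCm38.

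The 8 genes and the lists were chosen with earlier results of these data known. Named genes are the 8, up to 4 called genes of each list (or its 2 most abundant), overlapping genes and the 3 most like Nphs1. Some genes under this rule, and counts over the lists that hold them, are not reported here.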

Additional observations from a re-analysis of the deposited data

How the results depend on the processing

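Nphs1 and Ptpro kept their direction and their calls under all 16 alternatives. With no trend in the variance prior, calls over all genes came to 493 (266 higher and 227 lower in B6) against 1211 (656 and 555), and Cdkn1c lost its call (-0.47, limma adjusted p = 0.144); the cause was not tested. Podxl passed the threshold with a pseudocount of 5 CPM (-0.31), a mean of at least 5 CPM (-0.31), upper quartile scaling (-0.33) and a robust prior (-0.31), at adjusted p between 0.0443 and 0.0496. Leaving out each library gave between 797 and 1138 calls, of which between 415 and 604 were higher and between 350 and 534 lower in B6. Over the same fits Cdkn1c lay between -0.56 and -0.38, Podxl between -0.39 and -0.26, Plce1 between -0.053 and 0.23 and Wt1 between -0.13 and 0.11. Magi2 and Synpo kept their direction and stayed short of the threshold under all 16. The log2 ratio of Nphs1 to Podxl differed by between 1.94 and 3.75 under the planned settings and by 4.60 on recovered reads, a setting chosen after seeing the data. The replicate block gave 977 calls and Nphs1 at 2.98. Same-numbered libraries of the strains did not deviate together (correlations 0.012, -0.057 and -0.084). With 3 libraries per strain this cannot decide whether the numbers pair mice, and no label says that they do. The block changed the call of Arhgap24 alone among the named genes that were tested (limma adjusted p = 0.0854). Limma-voom on recovered reads gave 1116 calls. The count tests of edgeR and DESeq2 were not run. BALB/c values of Nphs1 rest on at most 12 reads a library, which limits how precisely its fold is known.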

Other observations

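On each side of the 8 podocyte genes, the nearest gene that was listed in the libraries and did not overlap was also read. This set was chosen after the data were seen. Of 16 such neighbours 12 were tested and 2 were called, 16.7% against 9.09% of all tested genes, both higher in B6. Prodh2, a proline dehydrogenase family gene 6.40 kb beyond the end of Nphs1, had 52.2, 52.9 and 52.2 CPM in the B6 libraries, against 44.5, 28.3 and 34.5 CPM in the BALB/c libraries. Its log2 fold was 0.56 ± 0.16 (SE, limma adjusted p = 0.0229), in the direction of Nphs1 and far smaller, and it lost its call under 6 of the 16 alternatives, with an adjusted p of up to 0.156.

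Slc22a18, a transporter gene 12.7 kb from Cdkn1c in the same imprinted region of chromosome 7, went the other way from Cdkn1c. It had 240.9, 258.6 and 242.2 CPM in the B6 libraries, against 186.0, 159.8 and 207.4 CPM in the BALB/c libraries, with no overlap. Its log2 fold was 0.43 ± 0.10 (SE, limma adjusted p = 0.00826), and it lost its call under 2 of the 16 alternatives, with an adjusted p of up to 0.169. Kcnq1, on the other side at 31.3 kb, had 0.23 (limma adjusted p = 0.643).

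The podocyte-expressed gene Sema3g lay below the filter, with 38 reads summed over the B6 libraries and 10 over the BALB/c libraries, and was not tested. It had at most 19 reads in a library. Thsd7a, of the same list, was lower in B6 (log2 fold -0.49, limma adjusted p = 0.00869). At such counts 1 gene does not show how podocyte genes differed between the strains.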
